A study of Mus musculus with 2 samples.

Results

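The fibroblast growth factor (FGF) receptor genes Fgfr1, Fgfr2, Fgfr3 and Fgfr4 and the receptor-like gene Fgfrl1 were followed in the embryonic mouse limb, down to each annotated transcript. The 5 genes were taken by symbol from the 43346 gene rows with Ensembl identifiers. Together they carry 58 annotated transcripts, all of which were found in the deposited transcript tables. The samples were limbs of B6NCrl embryos of mixed sex at embryonic day 10.5, with no genetic change or treatment named in the labels. Replicate 1 pooled limbs of 69 embryos and replicate 2 pooled limbs of 51, so each value describes a pool and not an animal. RNA longer than 200 nt was profiled by total RNA-seq from 10 ng per library. Both libraries belong to a single group, so the design allows levels and splice forms within the tissue to be described and the pools to be set side by side.

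FGF receptors are tyrosine kinases that bind FGF together with heparan sulfate through Ig-like loops outside the cell. The latter part of the third loop is encoded by either of a pair of alternative exons in Fgfr1, Fgfr2 and Fgfr3. The IIIb exon is typical of epithelia and the IIIc exon of mesenchyme, and the choice sets which FGFs the receptor binds. In the limb bud, Fgf10 from the mesenchyme acts on the IIIb form of Fgfr2 in the ectoderm, and FGFs from the apical ridge, Fgf8 among them, act on IIIc forms in the mesenchyme. Fgfr4 has a single form of that loop. Fgfrl1 has the Ig loops and a membrane anchor but lacks the kinase.

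Alternative exons are printed because the IIIb and IIIc levels rest on telling them apart, for Fgfr2 IIIb, which carried most of the IIIb class, and for both exons of Fgfr3. They are cut from GENCODE M21 transcripts on GRCm38, 5′ to 3′ on the strand of the gene, and capitals mark the 54 bases shared by all 3 at aligned positions. Fgfr2 IIIb lies at chr7:130199758-130199905 on the minus strand. Fgfr3 IIIb lies at chr5:33731281-33731431 and Fgfr3 IIIc at chr5:33732117-33732261, both on the plus strand.
Fgfr2 IIIb: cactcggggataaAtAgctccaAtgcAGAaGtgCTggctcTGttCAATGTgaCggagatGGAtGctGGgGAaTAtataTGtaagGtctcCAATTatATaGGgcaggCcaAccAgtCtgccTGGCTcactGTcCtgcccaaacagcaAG
Fgfr3 IIIb: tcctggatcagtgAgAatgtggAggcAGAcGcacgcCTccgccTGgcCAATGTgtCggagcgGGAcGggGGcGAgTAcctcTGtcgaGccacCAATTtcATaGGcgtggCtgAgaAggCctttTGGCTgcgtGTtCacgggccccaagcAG
Fgfr3 IIIc: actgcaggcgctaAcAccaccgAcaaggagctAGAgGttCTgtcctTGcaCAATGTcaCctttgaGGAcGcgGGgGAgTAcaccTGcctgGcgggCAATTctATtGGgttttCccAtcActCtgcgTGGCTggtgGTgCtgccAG
Their lengths are 148, 151 and 145 nt. The IIIb exons of Fgfr2 and Fgfr3 were 51.0% identical, no more than the 52.6% between Fgfr2 IIIb and Fgfr3 IIIc. The exons of Fgfr3 that replace each other were 45.9% identical.

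Expected counts, the estimated reads of a gene or transcript, totalled 40509328 in replicate 1 and 43983028 in replicate 2. The tissue label was checked with marker lists, counting a gene as expressed at 1 or more TPM (transcript abundance per length, scaled to a fixed total) in both libraries. All 7 limb mesenchyme markers, all 10 surface ectoderm and ridge markers, all 5 endothelial and all 5 erythroid markers were expressed. None of the 5 neural tube markers and 1 of the 5 liver markers reached that level. In such a bulk sample, fewer cells of a type and less RNA per cell cannot be told apart.

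Fgfr1 was the most abundant of the 5 genes, followed by Fgfr2, Fgfrl1, Fgfr3 and Fgfr4. Their summed level was 159 TPM in replicate 1 and 201 TPM in replicate 2. Fgfr1 made up 55.1% and 53.2% of that sum in replicates 1 and 2, and Fgfr2 made up 26.3% and 28.0%. Of the 5 genes, 4 were expressed in both libraries by the rule above, which 55.2% of all protein-coding genes met. Fgfr4 was the exception.

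Fgfr1 (ENSMUSG00000031565.13, chr8:25513654-25575718), the main receptor of limb mesenchyme, was at 87.8 TPM in replicate 1 and 107 TPM in replicate 2, or 97.4 ± 13.6 (SD, n = 2). The deposited intervals, whose level is not stated, were 84.9 to 90.1 and 104 to 109 TPM. They rested on 8687 and 10951 expected counts, and 85.3% of expressed protein-coding genes had a lower mean TPM. An annotated antisense gene, Gm16159, overlaps Fgfr1 and was at 0.29 TPM in replicate 1 and 0.52 TPM in replicate 2. The sources used here do not say whether counting used strand, so reads of that gene and of Fgfr1 in the overlap may not have been told apart.

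Fgfr2 (ENSMUSG00000030849.13, chr7:130162451-133123350), whose IIIb form is the ectodermal receptor for Fgf10, was at 41.8 TPM in replicate 1 and 56.3 TPM in replicate 2 (49.1 ± 10.3, SD, n = 2). Its expected counts were 2986 and 4018. It stood above 71.5% of expressed protein-coding genes.

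Fgfrl1 (ENSMUSG00000008090.10, chr5:108692382-108706924), the receptor without a kinase, was at 25.0 TPM in replicate 1 and 28.1 TPM in replicate 2 (26.6 ± 2.22, SD, n = 2). Its expected counts were 1664 and 1962, and 55.8% of expressed protein-coding genes were lower. The level of this gene without a kinase was thus below Fgfr2 and above both remaining kinases.

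Fgfr3 (ENSMUSG00000054252.13, chr5:33721674-33737068), known for its role in cartilage growth, was at 4.02 TPM in replicate 1 and 7.96 TPM in replicate 2 (5.99 ± 2.79, SD, n = 2), with 376 and 752 expected counts. Fgfr4 (ENSMUSG00000005320.9, chr13:55152640-55168759), a receptor found in muscle precursors, was at 0.60 TPM in replicate 1 and 1.76 TPM in replicate 2 (1.18 ± 0.820, SD, n = 2), with 52 and 158 expected counts. For both genes the libraries were far apart relative to the mean, and Fgfr4 crossed 1 TPM in replicate 2 alone.

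The order held in each library. Fgfr1 exceeded Fgfr2 by a log2 ratio of TPM of 1.07 in replicate 1 and 0.93 in replicate 2. Fgfr2 exceeded Fgfrl1 by 0.74 and 1.00, Fgfrl1 exceeded Fgfr3 by 2.64 and 1.82, and Fgfr3 exceeded Fgfr4 by 2.74 and 2.18 on the same scale. The deposited intervals of neighbouring genes did not overlap in either library for 4 of the 4 neighbouring pairs. No p is given for any ratio, since the smallest that an exact sign-flip test (two-sided) allows with this number of libraries is 0.5. Most of the step between Fgfr2 and Fgfrl1 came from a single Fgfr2 transcript, described with the Fgfr2 transcripts. Without it Fgfr2 was at 29.6 and 40.1 TPM and its mean log2 ratio over Fgfrl1 was 0.38.

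**Figure D1:**
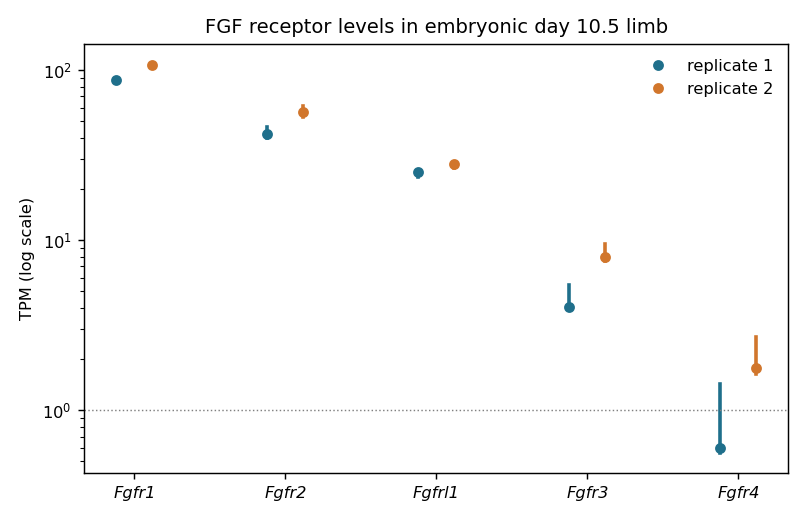
TPM (log axis) of the 5 genes in replicate 1 and replicate 2, ordered by mean level; vertical lines are the deposited intervals and the dotted line is 1 TPM. Fgfr1 was at 87.8 and 107 TPM and Fgfr4 at 0.60 and 1.76 TPM, and the points lie near the lower bound of the interval for Fgfr3 and Fgfr4.

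The libraries differed most for the scarce receptors. Differences are log2 ratios of replicate 1 over replicate 2 after TMM scaling, a scaling fitted on the whole table, with a 95% exact binomial interval that covers counting error only. Of the 5 genes, 2 were more than 1.5-fold lower in replicate 1, against 4.64% of the 12254 genes with a mean expected count of at least 100. Fgfr4 is in that count only through replicate 2, with 52 expected counts in replicate 1 and 158 in replicate 2. Its place there is thus tied to the library where it is higher. None of the 5 was more than 1.5-fold higher in replicate 1, against 1.65% of those genes. Fgfr4 had a log2 ratio of -1.40 (-1.88 to -0.94) and Fgfr3 one of -0.80 (-0.98 to -0.62). In other words, under this scaling the replicate 2 library had 2.64 times the Fgfr4 and 1.74 times the Fgfr3 level of the replicate 1 library.

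The other 3 members were within 1.5-fold. The log2 ratio was -0.22 (-0.29 to -0.16) for Fgfr2, -0.13 (-0.17 to -0.09) for Fgfr1 and -0.03 (-0.13 to 0.06) for Fgfrl1. The counting interval left out 0 for 4 of the 5 genes, as it did for 63.0% of all genes tested, so that count is near the background. The median log2 ratio of the 5 genes was -0.22 and that of all genes tested was 0.01. Since every pool was sequenced as 1 library, effects of pool, library and batch cannot be told apart.

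Cartilage markers, and some muscle precursor markers, differed between the libraries in the same direction as the scarce receptors. Over all genes tested 4.64% were more than 1.5-fold lower and 1.65% higher in replicate 1. Beside Fgfr3, all 3 cartilage markers with enough counts (Sox9, Col2a1 and Col9a1) were more than 1.5-fold lower in replicate 1, and the 5 cartilage markers summed to 166 TPM in replicate 1 and 367 TPM in replicate 2. Sox9, the cartilage master regulator, was at 71.0 TPM in replicate 1 and 142 TPM in replicate 2. Matn1, a matrix protein of mature cartilage, was at 0 in replicate 1 and 0.19 TPM in replicate 2, below the level counted as expressed. Beside Fgfr4, 3 of 5 muscle precursor markers were more than 1.5-fold lower in replicate 1 and 1 was higher, with sums of 25.6 and 50.7 TPM. Myod1, a muscle determination factor, was at 1.05 TPM in replicate 1 and 11.6 TPM in replicate 2. In contrast Lbx1, a factor of migrating muscle precursors, was at 5.27 and 3.28 TPM, and Pax3 at 10.5 and 9.69 TPM. The part of these markers in the receptor differences was not tested.

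**Figure D2:**
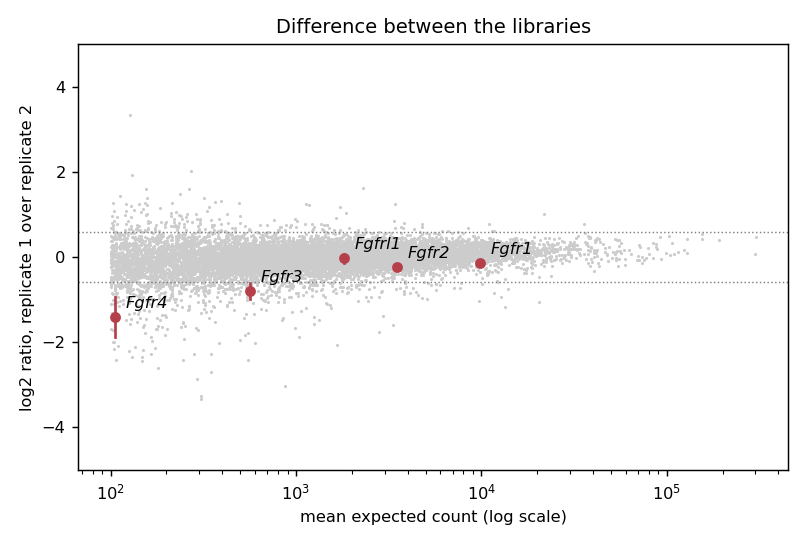
Log2 ratio of replicate 1 over replicate 2 after TMM scaling against the mean expected count (log axis) for genes with a mean count of at least 100 (grey), with the 5 receptor genes and their 95% counting intervals in red; dotted lines mark 1.5-fold. Fgfr4 at -1.40 and Fgfr3 at -0.80 lie below the lower line, and the other members lie between the lines.

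Of the 58 annotated transcripts, 26 had a TPM above 0 in both libraries, 11 in a single library and 21 in neither. By annotation 36 are protein-coding, 16 keep an intron, 4 are targets of nonsense-mediated decay (NMD, which destroys RNAs with an early stop) and 2 are processed transcripts. Transcripts of a gene share most of their sequence, so the split of its reads among them is an estimate. Structures are from GENCODE M21, whereas the tables were quantified on release M4. For 50 transcripts the lengths in both were equal, and for 8 they were not. Those 8 are Fgfr1-201, Fgfr1-203, Fgfr1-208, Fgfr2-211, Fgfr3-202, Fgfr3-205, Fgfrl1-201 and Fgfrl1-202, whose exons in the quantified release may differ from those described.

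Fgfr1 was mostly a mixture of 3 protein-coding transcripts, all with the IIIc exon. Fgfr1-202, which encodes 820 residues, led with 39.0 TPM in replicate 1 and 47.8 TPM in replicate 2, or 44.5% and 44.6% of the gene. Fgfr1-203 encodes 733 residues and skips the exon of the first Ig loop, a loop known to restrain ligand binding. It was at 17.1 and 22.3 TPM. Fgfr1-201, with 822 residues, was at 14.4 and 15.9 TPM. These 3 shares moved by at most 1.51 percentage points between the libraries, the smallest movement among the receptors with several detected transcripts.

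The rest of Fgfr1 lay mostly in transcripts that keep an intron or are NMD targets. Fgfr1-206 keeps an intron and was at 8.48 TPM in replicate 1 and 9.26 TPM in replicate 2, with 625 nt found in no other transcript of the gene. The NMD target Fgfr1-208, which holds both the IIIb and the IIIc exon, was at 3.89 and 4.38 TPM. Another retained-intron transcript, Fgfr1-204, was at 1.00 TPM (0.687 to 1.36) in replicate 1 and 2.45 TPM (1.92 to 2.92) in replicate 2. Its deposited intervals did not overlap.

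**Figure D3:**
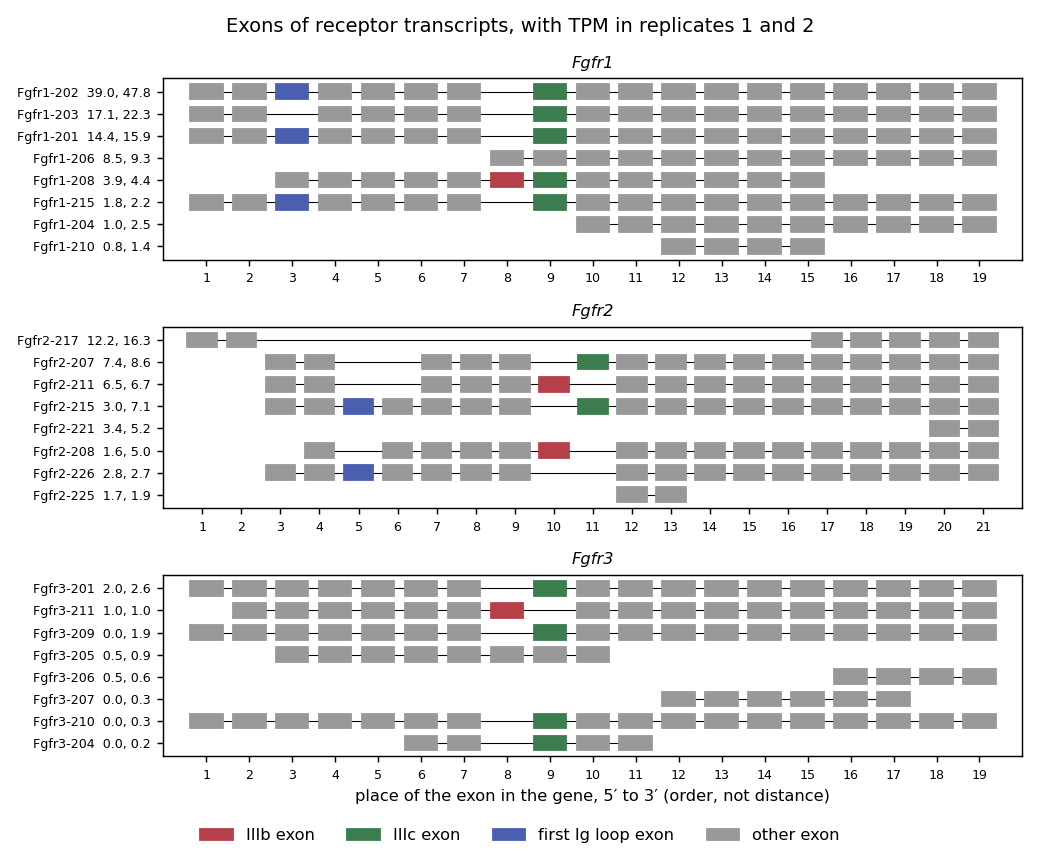
Exons held by the 8 most abundant transcripts of Fgfr1, Fgfr2 and Fgfr3, placed by order along the gene and not by distance, with TPM in replicates 1 and 2 beside each name. Boxes in red, green and blue are the IIIb, IIIc and first-loop exons, and grey boxes are other exons, among them retained introns that cover an alternative exon. The leading Fgfr1 transcript at 39.0 and 47.8 TPM has the IIIc exon, and the leading Fgfr2 transcript at 12.2 and 16.3 TPM has neither.

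Fgfr2 was spread over more forms. Its leading transcript, Fgfr2-217, was at 12.2 TPM (9.91 to 13.9) in replicate 1 and 16.3 TPM (13.9 to 18.5) in replicate 2, or 29.1% and 28.9% of the gene. It has 7 exons and encodes 182 residues, against 840 for the full receptor Fgfr2-215. It holds neither the IIIb nor the IIIc exon, nor any other exon of the Ig loops.

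The start of Fgfr2-217 lies far from the rest of the gene. Its first 2 exons, of 210 and 104 nt at chr7:133123141-133123350 and chr7:133081757-133081860, fall wholly inside exons of Ctbp2 on the same strand. Ctbp2, a transcriptional corepressor gene, was at 121 TPM in both libraries. The next Fgfr2 start lies 2.86 Mb downstream, with 68 annotated genes between, 29 of them protein-coding. Those 314 nt are the only bases of Fgfr2-217 that no other Fgfr2 transcript holds, and its remaining 5 exons are shared with Fgfr2. The tables hold no junction reads, so whether any read joins Ctbp2 exons to Fgfr2 exons was not tested.

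Fgfr2 transcripts that encode the kinase receptor were present with either exon. Fgfr2-207, a IIIc form of 723 residues without the first loop, was at 7.38 TPM in replicate 1 and 8.60 TPM in replicate 2. Fgfr2-211, a IIIb form of 726 residues also without that loop, was at 6.49 and 6.68 TPM. The IIIc form with the first loop, Fgfr2-215, was at 2.98 and 7.08 TPM and the IIIb form Fgfr2-208 at 1.60 and 5.0 TPM. For both of these the deposited intervals of the libraries overlapped, and the interval of Fgfr2-208 in replicate 1 reached down to nearly 0. Fgfr2-210, another IIIb form, was at 1.84 TPM in replicate 1 and 0 in replicate 2. The NMD target Fgfr2-226 skips both alternative exons and was at 2.77 and 2.69 TPM.

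By deposited TPM, Fgfr3 was led by the IIIc form Fgfr3-201 of 800 residues in both libraries, at 2.04 TPM in replicate 1 and 2.60 TPM in replicate 2. Its share was 50.6% in replicate 1 and 32.7% in replicate 2. The replicate 1 value lies just above its own deposited interval (0.393 to 2.00), and by the posterior mean the share was 25.9% in replicate 1 and 21.4% in replicate 2. The IIIb form Fgfr3-211 of 802 residues was at 1.01 TPM in both libraries. Another IIIc form, Fgfr3-209, was at 0 in replicate 1 and 1.87 TPM in replicate 2, and no base of it is absent from all other Fgfr3 transcripts. By the posterior mean it took 8.62% of the gene in replicate 1 and 25.6% in replicate 2, where it stood above Fgfr3-201.

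Fgfr4 had a single detected transcript, Fgfr4-201 of 799 residues, which took 100% of the gene in both libraries. By the posterior mean it took 60.9% in replicate 1 and 80.6% in replicate 2. Fgfrl1 had both of its annotated transcripts. Fgfrl1-201 of 529 residues was at 19.5 TPM in replicate 1 and 23.3 TPM in replicate 2, and Fgfrl1-202 of 438 residues was at 5.47 and 4.79 TPM.

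By deposited TPM the leading transcript was the same in both libraries for 5 of the 5 genes, and it differed for 7.92% of the 8766 genes with 2 or more transcripts and enough counts. By posterior mean TPM it was the same for 4 of the 5, the exception being Fgfr3, and it differed for 8.26% of those genes. A transcript share differed by 10 percentage points or more for 1 of the 5 genes, against 21.1% of those genes. That gene was Fgfr3, through the 23.6 points of Fgfr3-209. The largest movement was 5.44 points for Fgfr2 and 4.86 points for Fgfrl1.

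**Figure D4:**
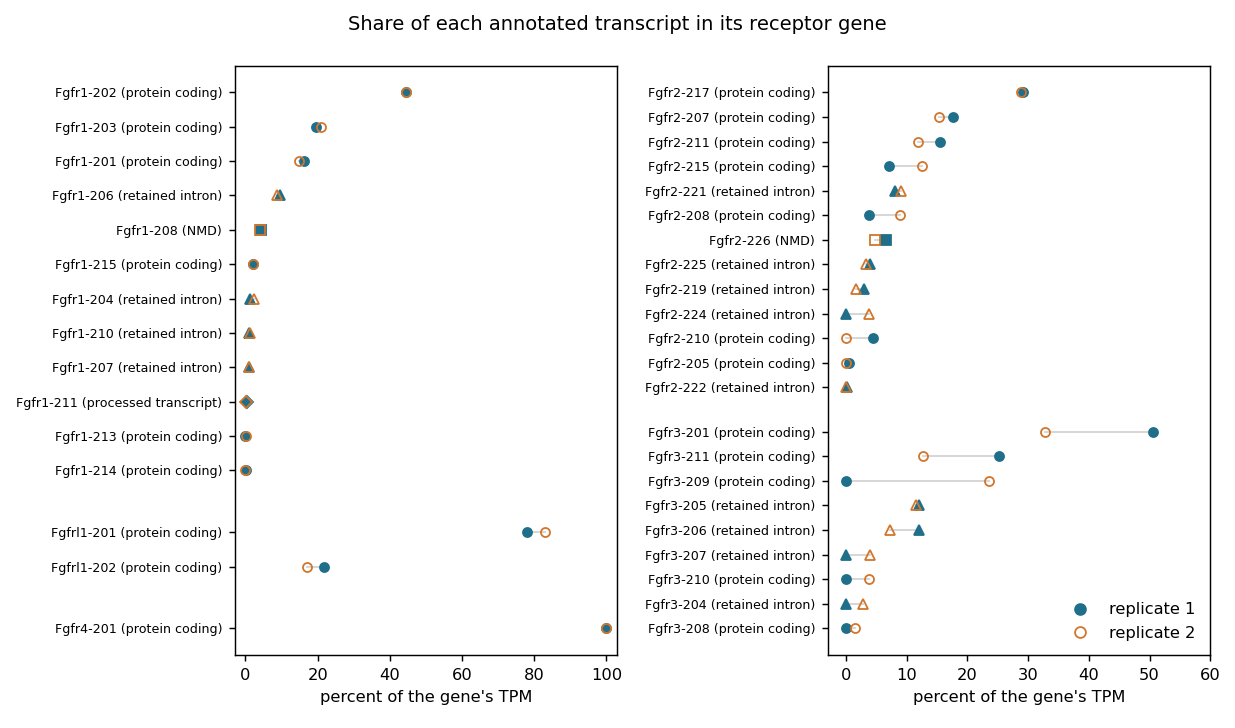
Percent of the gene's TPM taken by each transcript with a TPM above 0 in at least a single library (filled, replicate 1; open, replicate 2; circles protein-coding, squares NMD targets, triangles retained introns, diamonds processed transcripts). The Fgfr1 shares lie on top of each other, at 44.5% and 44.6% for Fgfr1-202, and those of Fgfr3 are apart, at 50.6% and 32.7% for Fgfr3-201.

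The choice between IIIb and IIIc differed among the 3 genes that have it. Each IIIb share is taken over transcripts that hold either exon, and transcripts with neither are left out. An exon counts as held only where it is annotated with its exact ends. Retained-intron transcripts that run over its place thus count as neither. Among transcripts with either exon, Fgfr1 was nearly all IIIc by TPM. Those holding only the IIIc exon had 72.3 TPM in replicate 1 and 88.1 TPM in replicate 2. Fgfr1 transcripts with neither exon by this rule had 11.4 and 14.3 TPM. Most of that was the retained-intron transcript Fgfr1-206, at 8.48 TPM in replicate 1 and 9.26 TPM in replicate 2. It overlaps the places of both exons. Transcripts with the IIIb exon and not the IIIc exon had 0.21 and 0.28 TPM. Counting Fgfr1-208, which has both exons, the IIIb share was 5.37% and 5.02%, and without it the mean share was 0.303%.

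Fgfr2 held both classes. Its IIIb transcripts summed to 9.93 TPM in replicate 1 and 11.7 TPM in replicate 2, and its IIIc transcripts to 10.6 and 15.7 TPM. The IIIb share was 48.5% in replicate 1 and 42.7% in replicate 2 (45.6% ± 4.10, SD, n = 2). This share leans on Fgfr2-211, whose length differs between the releases: over transcripts of equal length alone the mean was 24.4%, and with expected counts in place of TPM it was 37.1%. Both alternatives kept Fgfr2 IIIb below IIIc.

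Fgfr3 IIIb transcripts were at 1.01 TPM in both libraries, and its IIIc transcripts at 2.04 TPM in replicate 1 and 4.99 TPM in replicate 2. Its IIIb share was 33.1% and 16.8%, with the IIIb sum equal by deposited TPM and the IIIc sum higher in replicate 2. The IIIb sum was Fgfr3-211 alone, which is loosely estimated. Its deposited interval ran from nearly 0 to 1.34 TPM in replicate 1 and from 0.0552 to 1.72 TPM in replicate 2. By the posterior mean it was at 0.70 and 0.80 TPM. By summed TPM, the IIIc class of Fgfr1 was the most abundant alternative form of any receptor, and the IIIb class was carried mainly by Fgfr2.

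**Figure D5:**
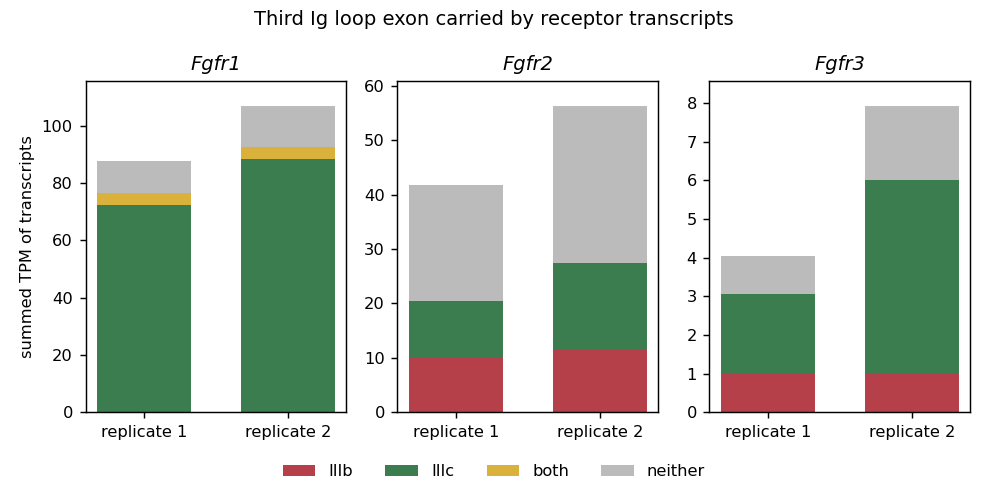
Summed TPM of transcripts by the third-loop exon they hold (IIIb, IIIc, both or neither), stacked for replicate 1 and replicate 2 of Fgfr1, Fgfr2 and Fgfr3, each with its own axis from 0. Fgfr1 is mostly IIIc (72.3 and 88.1 TPM), with 11.4 and 14.3 TPM in neither class. Fgfr2 has IIIb at 9.93 and 11.7 TPM beside IIIc at 10.6 and 15.7 TPM, with 21.3 and 29.0 TPM in neither.

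By deposited TPM the first-loop exon was used more in Fgfr1 and Fgfrl1 than in Fgfr2. Among transcripts that span it, Fgfr1 kept its 267-nt exon in 76.1% of TPM in replicate 1 and 74.5% in replicate 2. Fgfr2 kept its exon, also 267 nt, in 24.9% and 32.5%. Fgfrl1 kept a 273-nt exon in 78.1% and 83.0%. The Fgfr2 values in the libraries thus lay below both other genes by more than the spread between the libraries. These shares lean on Fgfr1-201, Fgfr1-203, Fgfr2-211 and both Fgfrl1 transcripts, whose lengths differ between the releases. Of the Fgfr2 TPM with the exon, the NMD target Fgfr2-226 held 2.77 TPM in replicate 1 and 2.69 TPM in replicate 2. Its deposited intervals reached down to 0.502 and 0.00581 TPM. The first-loop shares were not recomputed in another way.

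Short donor choices change the receptors by a pair of residues. The exon that follows the third loop, which spans the membrane, ends at either of 2 donors 6 nt apart. The longer form adds the residues valine and threonine (VT), which are known to matter for binding the adaptor Frs2. The exon ends are shown in 30 bases with the optional 6 in capitals, at chr8:25566884-25566913 for Fgfr1 on the plus strand and chr7:130196172-130196201 for Fgfr2 on the minus strand.
Fgfr1 VT donor: aagagcatccctctgcgcagacagGTAACA
Fgfr2 VT donor: aagcgcatccccctgcggagacagGTAACA
The optional bases are identical in both genes. Fgfr1 transcripts held them in 95.4% of TPM in replicate 1 and 95.7% in replicate 2. Fgfr2 transcripts held them in 60.3% and 71.4%. The Fgfr2 form without them was mainly Fgfr2-207, and the remaining Fgfr1 TPM without them was all Fgfr1-208. That NMD target, whose length differs between the releases, is the only Fgfr1 transcript annotated with the shorter donor, against 7 of Fgfr2. The Fgfr1 share and its contrast with Fgfr2 thus depend on which transcripts are annotated.

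A further donor pair lies in the exon of Fgfr1 after the first loop, which is 84 or 90 nt long. Its longer end is shown at chr8:25557791-25557820, with the optional bases in capitals.
Fgfr1 long donor: agacggacaacaccaaaccaaaccGTAGGC
The long donor was used in 46.3% of TPM in replicate 1 and 45.8% in replicate 2. It separates Fgfr1-201 and Fgfr1-203 from Fgfr1-202. Every transcript annotated with the long donor (Fgfr1-201, Fgfr1-203 and Fgfr1-208) differs in length between the releases. This share thus rests on structures that may differ from those quantified, and it was not recomputed in another way.

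Protein-coding transcripts took 82.6% of Fgfr1 TPM in both libraries. They took 78.1% and 77.4% of Fgfr2, 75.7% and 74.3% of Fgfr3, and 100% of Fgfr4 and Fgfrl1. The Fgfr2 part includes Fgfr2-217, at 29.1% of the gene in replicate 1 and 28.9% in replicate 2. That transcript encodes 182 residues and holds no exon of the Ig loops. Retained-intron transcripts took 12.6% and 13.1% of Fgfr1, 15.2% and 17.8% of Fgfr2, and 24.3% and 25.7% of Fgfr3.

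The other genes of the pathway were measured from lists by role, 89 genes in all, of which 70 were expressed. Among the 70 with a mean expected count of at least 100, 3 were more than 1.5-fold lower and 3 more than 1.5-fold higher in replicate 1. Those counts stand beside the 4.64% and 1.65% of all genes given above.

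Of 22 FGF family genes, listed whether or not they are known ligands of these receptors, 7 were expressed. Fgf8, the main ridge ligand, was at 88.5 TPM in replicate 1 and 65.9 TPM in replicate 2, and Fgf10, the mesenchymal ligand of IIIb forms, at 15.6 and 10.3 TPM. Fgf4, another ridge ligand, was at 2.70 and 1.29 TPM. Fgf9, which binds IIIc forms, was at 2.49 and 5.48 TPM, the opposite direction. Fgf17 was at 0.66 and 1.04 TPM and Fgf7, a further IIIb ligand, at 0.02 and 0.43 TPM. Among the 5 FGF family genes with enough counts, 2 were lower and 2 higher in replicate 1 by more than 1.5-fold. The lower ones were Fgf9 and Fgf13, the latter at 3.79 and 7.67 TPM, and the higher ones were Fgf4 and Fgf10. The klotho co-receptors Kl and Klb, which endocrine FGFs need, were both at or below 0.04 TPM.

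Among downstream genes, all 22 adaptors and effectors were expressed and none was past 1.5-fold either way. The kinase Map2k2 was highest at 203 TPM in replicate 1 and 205 TPM in replicate 2, and Frs2, the docking protein of the receptors, was at 11.7 and 14.0 TPM. Of 14 feedback and target genes 13 were expressed, led by the ERK phosphatase Dusp6 at 179 and 167 TPM. The exception, Flrt1, was also the only member past 1.5-fold, at 0.46 and 1.36 TPM. All 15 heparan sulfate carriers and enzymes were expressed. Of these the glypican Gpc3 was highest at 835 and 937 TPM, and Gpc5 was the only member past 1.5-fold, at 13.3 and 7.32 TPM.

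Of 14 splicing regulators known to act on the IIIb and IIIc exons, 13 were expressed and none was past 1.5-fold. Esrp1 and Esrp2, epithelial proteins that favour IIIb, were at 5.01 and 4.64 TPM in replicate 1 and both at 6.13 TPM in replicate 2. Rbfox2, which acts on the Fgfr2 exons, was at 24.1 and 32.2 TPM. Ptbp1, a repressor of the Fgfr2 IIIb exon, was at 414 TPM in replicate 1 and 409 TPM in replicate 2. Surface ectoderm and ridge markers, which mark cells where IIIb forms are known, summed to 271 TPM in replicate 1 and 255 TPM in replicate 2. Of the 10, 2 were lower and 3 higher in replicate 1 by more than 1.5-fold. Their part in the IIIb levels was not tested.

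With 2 libraries, likeness to a receptor can only mean a like level. The nearest protein-coding genes by distance in log2 TPM over both libraries were Zfp260 and Fnbp4 for Fgfr1, Kif3a and Ednra for Fgfr2, Map2k7 and Rngtt for Fgfrl1, Tead3 and Fhl2 for Fgfr3, and Pde7b and Pou6f1 for Fgfr4. Kif3a, at 42.0 TPM in replicate 1 and 56.2 TPM in replicate 2, was the closest of these.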

How the data were processed

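Per the files deposited with each sample, the authors quantified each library on its own from transcriptome alignments on mm10 with GENCODE M4. Aligner, quantifier and strand setting: not given in the sources used here. The deposited tables hold expected counts and TPM, which is scaled over all rows, spike-ins included. They also hold posterior mean TPM, interval bounds of unstated level (named a score, in TPM units) and each transcript's percent of its gene's TPM, all as deposited by the authors. Effective length was length minus 99 nt. GENCODE M21 on GRCm38 gave names and structures, and 98.0% of the 43346 Ensembl rows were named. The 26345 other rows (spike-ins, phiX and unnamed identifiers) stayed out of scaling.

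Expected counts were rounded and scaled by TMM in edgeR 4.0.16 (R 4.3.3), with a minimum mean count of 10. DESeq2 1.42.0 size factors were an alternative. Differences carry 95% exact binomial intervals, which cover counting error only, since each side is a single library. PCR reads lacking molecular identifiers are not independent molecules, so these intervals may be too narrow even for counting error. Exons were aligned with mafft 7.526. Sequences of the other alternative exons are not reported here. Python 3.11.15, scipy 1.17.1 and matplotlib 3.10.9 did the rest. A call needed 1.5-fold at a mean count of 100 or more. The rule for named genes took all members and their transcripts, up to 4 of the highest genes per pathway list, limb ligands and 4 splicing regulators. Other pathway and marker genes were named after their values were seen. Members and lists were chosen with earlier results of these data known. Expected counts totalled 40509328 in replicate 1 and 43983028 in replicate 2.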

Additional observations from a re-analysis of the deposited data

How the results depend on the processing

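No result reversed. All 25 recomputed differences between the libraries kept their direction and their side of 1.5-fold, though several fell outside their counting intervals. With spike-in scaling the log2 ratios of Fgfr1, Fgfr2, Fgfrl1 and Fgfr3 were -0.39, -0.48, -0.29 and -1.06, all outside. With deposited TPM they were -0.29, -0.43, -0.17 and -0.99, also outside. Posterior mean TPM put Fgfr1, Fgfr2 and Fgfrl1 outside, at -0.28, -0.41 and -0.17. Fgfr4 stayed within its interval in each setting. Of the 102 other recomputed values, 77 stayed within 1 SD over the libraries (counts within 1.5 times) and 25 moved. Leaving out either library moved no level, ratio or share by more than 1 SD, which 2 libraries fix by construction. Those values are among the 77 and could not have moved, so the 77 overstates how much was checked. No paired analysis was possible because there is a single group of 2 libraries. Without the transcript that starts in Ctbp2 (an alternative added after seeing the data), Fgfr2 averaged 34.9 TPM, Fgfr1 over Fgfr2 was a log2 ratio of 1.49 and Fgfr2 over Fgfrl1 was 0.38. Over Ensembl rows alone Fgfrl1 was at 29.0 TPM. With a pseudocount of 1, Fgfr3 over Fgfr4 was 1.67. Genes past 1.5-fold numbered 770, against 2598 at a mean count of 10 or more and 8227 without a filter. By posterior mean TPM, the mean share was 43.4% for Fgfr1-202, 27.8% for Fgfr2-217, 23.6% for Fgfr3-201 (below Fgfr3-209 in replicate 2) and 70.8% for Fgfr4-201. Among protein-coding transcripts alone it was 53.9%, 37.3% and 55.5% for the first 3. The Fgfr1 IIIb share was 5.54% by posterior mean, 2.15% with expected counts, 0.303% both over protein-coding transcripts and without transcripts holding both exons, and 0.534% over transcripts of equal length in both releases. The Fgfr2 IIIb share was 37.1% with expected counts and 24.4% over transcripts of equal length. Leaving out transcripts with both exons and keeping those of equal length were settings added after seeing the data. The protein-coding share by posterior mean was 82.0% for Fgfr1, 75.8% for Fgfr2, 71.5% for Fgfr3 and 70.9% for Fgfr4. The scaling moved the median log2 ratio of all genes to -0.13 with deposited TPM and -0.25 with spike-ins. The cause of the other movements was not tested. Depth limits the transcripts of Fgfr3 and Fgfr4 most.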
